A study of Homo sapiens with 6 samples.

Results

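The interferon-stimulated genes described here are 35 of the 17452 genes listed in each library, and were chosen by symbol as antiviral effectors, RNA sensors, and STAT and IRF transcription factors. Their RNA was measured by sequencing in 3 libraries of MDA-MB-231 cells transfected with siRNA against PHF20L1 (siPHF20L1) and 3 libraries of MDA-MB-231 cells that received a control siRNA (siControl). MDA-MB-231 is a human line from a breast tumour that lacks the oestrogen and progesterone receptors, and PHF20L1 is a chromatin reader that recognises methylated lysines. All 6 libraries came from cells transfected with siRNA, and no label describes treatment with interferon, viral infection or an untransfected culture. The labels name a choice of lipid reagents without saying which was used, and give neither siRNA sequences nor a time of harvest. No label says whether replicate libraries derive from separate cultures. The p-values therefore describe the spread among these libraries alone, and that spread may be technical.

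Cells that sense foreign RNA through the helicases encoded by DDX58 and IFIH1, or foreign DNA through other sensors, switch on interferon genes. Secreted type I interferon binds a receptor made of IFNAR1 and IFNAR2, whose kinases phosphorylate STAT2 among other proteins. STAT2 and IRF9 are parts of the complex ISGF3, which binds the interferon-stimulated response element (ISRE) in promoters. The gamma-activated site (GAS) is another element of interferon-responsive promoters. The induced proteins degrade or bind viral RNA, block translation, hinder entry and budding, or tag proteins with ISG15. Many tumour lines keep a low level of these transcripts without added interferon.

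Promoter windows were available in RefSeq (GRCh38.p14) for 28 of the 35 members, each from 250 bases before to 50 bases after an annotated start. Windows were searched on both strands for GAAANNGAAA, a core of the ISRE, and for TTCNNNGAA, the GAS core. The patterns can overlap each other and themselves. Of the 28 members, 19 (67.9%) held the ISRE letters, against 4.38% of the 27305 genes with a window in RefSeq, and 13 held them more than once in a window, against 0.311% of those genes. The GAS letters stood in 9 of the 28 (32.1%), against 9.38% of all genes with a window. IFIT2, OAS2, OASL, IRF7, USP18, MX2 and TRIM22 were without an entry. The stretches below run 5′ to 3′ on the gene's strand from 170 bases before to 10 bases after the start, in RefSeq GRCh38.p14 coordinates. They belong to members that were higher in the siPHF20L1 libraries (IFI44, IFIH1, HERC5, OAS3, IFIT1) and to members that were lower (IFIT5, IFITM1, SAMD9, IRF1). Capitals mark the ISRE letters on either strand, and in IRF1, which held none, the GAS letters.
IFI44 (chr1:78649619-78649798, plus strand): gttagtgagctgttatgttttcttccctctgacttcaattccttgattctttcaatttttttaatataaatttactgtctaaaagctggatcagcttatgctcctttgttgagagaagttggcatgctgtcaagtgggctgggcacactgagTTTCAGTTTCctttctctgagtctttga
IFIH1 (chr2:162318675-162318854, minus strand): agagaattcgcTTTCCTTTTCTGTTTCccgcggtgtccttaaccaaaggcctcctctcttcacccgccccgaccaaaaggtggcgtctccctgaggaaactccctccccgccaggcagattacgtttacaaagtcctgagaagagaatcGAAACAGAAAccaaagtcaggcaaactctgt
HERC5 (chr4:88456949-88457128, plus strand): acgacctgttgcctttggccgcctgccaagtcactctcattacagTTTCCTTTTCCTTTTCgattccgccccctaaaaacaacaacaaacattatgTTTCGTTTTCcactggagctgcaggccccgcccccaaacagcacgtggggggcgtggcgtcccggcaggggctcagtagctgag
OAS3 (chr12:112938304-112938483, plus strand): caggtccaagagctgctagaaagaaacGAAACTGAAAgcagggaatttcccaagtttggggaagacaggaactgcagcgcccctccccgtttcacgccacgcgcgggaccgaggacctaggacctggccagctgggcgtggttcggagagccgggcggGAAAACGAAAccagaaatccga
IFIT1 (chr10:89392453-89392632, plus strand): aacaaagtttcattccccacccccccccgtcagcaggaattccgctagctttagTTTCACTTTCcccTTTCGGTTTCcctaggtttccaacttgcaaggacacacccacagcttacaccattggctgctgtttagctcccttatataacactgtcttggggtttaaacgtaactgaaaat
IFIT5 (chr10:89414398-89414577, plus strand): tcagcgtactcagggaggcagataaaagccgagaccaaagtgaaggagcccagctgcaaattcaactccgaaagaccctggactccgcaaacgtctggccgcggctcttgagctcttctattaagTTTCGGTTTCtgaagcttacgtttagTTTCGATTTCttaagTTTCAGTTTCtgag
IFITM1 (chr11:313870-314049, plus strand): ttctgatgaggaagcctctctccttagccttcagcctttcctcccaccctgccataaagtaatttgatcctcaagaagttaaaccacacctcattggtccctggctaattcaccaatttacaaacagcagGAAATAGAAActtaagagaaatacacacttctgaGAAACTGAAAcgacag
SAMD9 (chr7:93117970-93118149, minus strand): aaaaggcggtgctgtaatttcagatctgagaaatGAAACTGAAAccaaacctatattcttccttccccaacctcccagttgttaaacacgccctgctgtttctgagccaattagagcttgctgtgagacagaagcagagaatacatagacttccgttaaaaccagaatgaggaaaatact
IRF1 (chr5:132490764-132490943, minus strand): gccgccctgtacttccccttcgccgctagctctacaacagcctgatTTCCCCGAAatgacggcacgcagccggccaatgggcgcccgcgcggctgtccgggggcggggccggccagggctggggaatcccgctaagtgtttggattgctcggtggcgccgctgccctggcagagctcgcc

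Repeated ISRE letters stood both in promoters of members that were higher, such as HERC5, and in promoters of members that were lower, such as IFIT5. Among the 18 tested members with an ISRE match, 10 were higher, 4 were lower and 4 did not pass the test described next. The 10 include IFI44L, which reached 1 FPKM in the siPHF20L1 libraries alone and so had to be the higher there. Among the 8 tested members with a window and no match, namely OAS1, DDX58, IRF1, IRF9, STAT2, HERC6, IFI35 and XAF1, 3 were higher, 2 were lower and 3 did not pass. For the GAS letters, which OAS1, DDX60, IRF1, IRF9, MX1, BST2, IFITM1, IFI27 and IFI35 held, the counts were 4 higher, 3 lower and 2 that did not pass. Among the 17 tested members with a window and no GAS match, 9 were higher, IFI44L again included, 3 were lower and 5 did not pass. The shares over all genes tested were 34.0% higher and 24.7% lower. A match is a run of letters in this window, and binding was not measured.

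The deposited unit is FPKM, a fragment count scaled to transcript length and to the total of the library. Values are given per library in the order of the replicate numbers 1, 2 and 3, and as mean ± SD (n = 3 libraries in each group). Differences are siPHF20L1 minus siControl on the log2(FPKM + 1) scale, which understates changes of low genes. They were tested with limma, with Benjamini-Hochberg adjustment across the 11560 genes that reached 1 FPKM in 3 or more libraries and a threshold of 0.05. The estimated depth was 17100000 to 17550000 fragments per library. PHF20L1 itself was listed at 2.67, 2.31 and 2.74 FPKM in siPHF20L1 libraries and at 15.75, 12.48 and 12.73 FPKM in siControl libraries, which is -2.03 on the log2 scale (SE 0.10, limma, adjusted p = 1.46e-06). Markers of this line summed to 1247 to 1261 FPKM in siPHF20L1 libraries and to 1864 to 1882 FPKM in siControl libraries, mostly VIM (1010 to 1024 against 1613 to 1644 FPKM). ZEB1 was lower too (30.9 ± 1.58 against 39.8 ± 3.20 FPKM, limma, adjusted p = 0.00286). CD44 (140 ± 1.78 against 141 ± 2.85 FPKM, limma, adjusted p = 0.865) and EGFR (66.7 ± 3.43 against 68.9 ± 6.80 FPKM, 0.662) did not pass. SPARC, also on that list, was low, at 0.61 to 0.67 FPKM in siPHF20L1 and 0.95 to 1.2 FPKM in siControl libraries. Immune markers summed to 2.01 to 2.73 FPKM in siPHF20L1 and 2.59 to 2.94 FPKM in siControl libraries. Of these, 2 of 6 were above 1 FPKM in any library, PTPRC (0.87 to 1.43 FPKM) and CD14 (0.5 to 1.24 FPKM). The T cell marker CD3E was at most 0.04 FPKM. Luminal markers summed to 6.53 to 8.6 against 6.90 to 7.16 FPKM, with ESR1 at 0 in all 6 libraries, but EPCAM was higher (4.31 ± 0.796 against 2.20 ± 0.161 FPKM, limma, adjusted p = 0.00067) and FOXA1 lower (1.19 ± 0.104 against 2.51 ± 0.104 FPKM, 9.8e-05). The 3 fibroblast and endothelial markers summed to 2.08 to 2.44 against 1.72 to 2.03 FPKM. The part of these shifts, that of VIM included, in the differences below was not tested. The libraries numbered 1 stood apart from those numbered 2 and 3 in both groups, so differences within the number 1 and within the numbers 2 and 3 are given where they part.

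The interferon-stimulated genes moved in both directions, more often upward in the siPHF20L1 libraries. Of the 31 members tested, 16 (51.6%) were higher and 6 (19.4%) were lower past the threshold, and the remaining 9 missed it (limma, adjusted p under 0.05). Over all genes tested, 34.0% were higher, 24.7% were lower and 58.6% were called in either direction. The median log2 difference was 0.25 over the 31 members and 0.05 over all genes tested. A positive difference was found for 24 of the 31, and the share over all genes tested was not counted. One member, IFI44L, passed the filter on low values through the siPHF20L1 libraries alone and so had to be the higher there, which leaves 15 higher without it. IFI44L is also in the median and among the 24. MX2, RSAD2, CMPK2 and TRIM22 were too low to be tested. Most changes were modest in size. On the log2(FPKM + 1) scale, IFI44, the largest rise, and IFITM1, the largest fall, were the only 2 tested members with a difference of at least 1. That size was reached by 604 of all genes tested (5.22%). By the ratio of the means, the low genes IFI44L (2.52) and RSAD2 (4.23, not tested) rose more than IFI44 (2.38). All 35 members summed to 705, 778 and 755 FPKM in the siPHF20L1 libraries and to 652, 699 and 703 FPKM in the siControl libraries, sums in which ISG15, IFIT3 and IFIT2 weigh most. In RNA from bulk cultures, a change in all cells and a change in the share of cells that express a gene cannot be told apart.

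**Figure D1:**
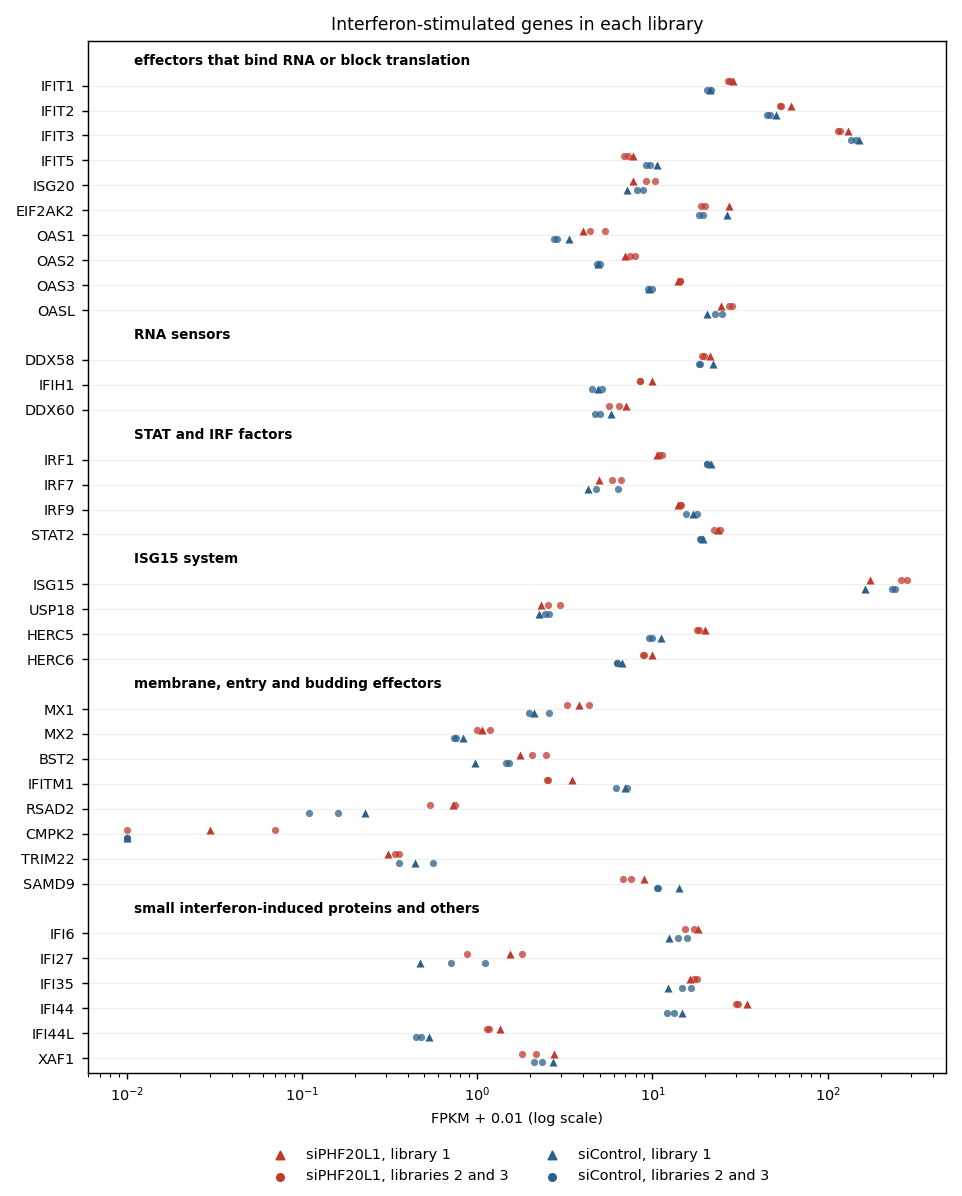
FPKM of each of the 35 members in each library, on a log axis with a small offset so that values of 0 can be shown, with siPHF20L1 above siControl on each line. Triangles are the libraries numbered 1 and circles those numbered 2 and 3. IFI44, IFIH1, HERC5 and OAS3 have separate groups with siPHF20L1 to the right, IRF1, IFITM1 and SAMD9 have separate groups with siPHF20L1 to the left, and for EIF2AK2 and ISG15 the library numbered 1 lies apart in both groups.

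Among the 10 members that bind RNA or block translation, 6 were higher and 2 were lower. The shares over all genes tested were 34.0% higher and 24.7% lower, and whether this group departs from them was not tested. The oligoadenylate synthetases, whose product activates the nuclease RNase L, were all higher. OAS3 was listed at 13.95, 14.39 and 14.42 FPKM in the siPHF20L1 libraries (14.3 ± 0.263), against 9.50, 9.44 and 9.97 FPKM in the siControl libraries (9.64 ± 0.290). The libraries of each group lay close together, with a log2 difference of 0.52 (SE 0.06, limma, adjusted p = 0.000119). OAS2 had 6.99, 7.96 and 7.39 FPKM in siPHF20L1 (7.45 ± 0.487) and 4.87, 5.02 and 4.83 FPKM in siControl (4.91 ± 0.10), a difference of 0.51 (SE 0.07, limma, adjusted p = 0.000348). OAS1, the least abundant of these enzymes, had 3.98, 4.40 and 5.33 FPKM in siPHF20L1 (4.57 ± 0.691) and 3.32, 2.84 and 2.73 FPKM in siControl (2.96 ± 0.314), a difference of 0.49 (SE 0.11, limma, adjusted p = 0.00401). The OAS1 groups did not overlap, but its difference was 0.21 within the number 1 and 0.63 within the numbers 2 and 3. OASL, a relative that lacks synthetase activity, averaged 26.8 ± 1.90 FPKM in siPHF20L1 and 22.7 ± 2.13 FPKM in siControl libraries, a difference of 0.23 (limma, adjusted p = 0.0384). Its groups overlapped, with the lowest siPHF20L1 library at 24.71 FPKM and the highest siControl library at 24.78 FPKM. The OASL call was lost without siPHF20L1 2 (limma, adjusted p = 0.103), siPHF20L1 3 (0.135), siControl 1 (0.0958) or siControl 2 (0.0862), and with median-ratio size factors (0.124), after quantile normalization (0.109) and with no filter (0.0616). The call was also lost when the libraries numbered 2 and 3 of each group were averaged (limma, adjusted p = 0.13). Over all alternatives the OASL difference lay between 0.17 and 0.30.

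The IFIT genes, whose proteins bind RNA and form complexes with one another, split into opposite directions. IFIT1, which binds RNA caps lacking a self mark, was at 28.67, 26.86 and 27.73 FPKM in the siPHF20L1 libraries (27.8 ± 0.905) and at 21.35, 21.68 and 20.45 FPKM in the siControl libraries (21.2 ± 0.637). Every siPHF20L1 library was above every siControl library, with a log2 difference of 0.38 (SE 0.06, limma, adjusted p = 0.000559). IFIT2 averaged 56.4 ± 4.57 FPKM in siPHF20L1 and 47.3 ± 2.92 FPKM in siControl libraries, a difference of 0.25 (SE 0.07, limma, adjusted p = 0.0187). IFIT3, the partner that stabilises IFIT1, was lower, at 121 ± 8.94 FPKM in siPHF20L1 against 144 ± 6.95 FPKM in siControl libraries, a difference of -0.25 (SE 0.07, limma, adjusted p = 0.0124). IFIT5, which binds RNA with triphosphate ends, was also lower, at 7.72, 6.87 and 7.27 FPKM in siPHF20L1 (7.29 ± 0.425) against 10.61, 9.73 and 9.21 FPKM in siControl libraries (9.85 ± 0.708). All IFIT5 values in siPHF20L1 were below those in siControl, and the difference was -0.39 (SE 0.08, limma, adjusted p = 0.00238). The smaller differences missed the threshold when some libraries were left out, at a similar size. That of IFIT2 was 0.24 without siControl 2 (limma, adjusted p = 0.0612) and 0.21 without siControl 3 (0.0708), and that of IFIT3 was -0.21 without siPHF20L1 3 (0.058). Both calls were also lost after quantile normalization (0.0905 for IFIT2 and 0.0632 for IFIT3). Averaging the libraries numbered 2 and 3 removed both as well (limma, adjusted p = 0.089 for IFIT2 and 0.0976 for IFIT3).

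The other members of this group did not pass the test. ISG20, an exonuclease that degrades single-stranded RNA, averaged 9.07 ± 1.29 FPKM in siPHF20L1 and 8.06 ± 0.849 FPKM in siControl libraries, with a 95% interval of the log2 difference between -0.10 and 0.40 (limma, adjusted p = 0.271). ISG20 passed once the replicate number was a block (limma, adjusted p = 0.0426). EIF2AK2 encodes PKR, the kinase that halts translation when it meets double-stranded RNA. It was at 27.40, 18.93 and 19.98 FPKM in the siPHF20L1 and 26.63, 19.43 and 18.45 FPKM in the siControl libraries. The library numbered 1 was the highest of its group in both cases, and the interval of the difference ran between -0.33 and 0.41 (limma, adjusted p = 0.858).

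The cytoplasmic RNA sensors differed among themselves. IFIH1 encodes MDA5, which recognises long double-stranded RNA. It was at 9.93, 8.48 and 8.48 FPKM in the siPHF20L1 libraries (8.96 ± 0.837) and at 4.88, 4.49 and 5.11 FPKM in the siControl libraries (4.83 ± 0.313). The groups were far apart relative to their spread, with a ratio of the means of 1.86 and a log2 difference of 0.77 (SE 0.08, limma, adjusted p = 8.64e-05). DDX58 encodes RIG-I, which recognises triphosphate RNA ends. It was at 21.21, 19.09 and 19.61 FPKM in siPHF20L1 (19.97 ± 1.10) and at 21.99, 18.39 and 18.59 FPKM in siControl libraries (19.7 ± 2.02). These groups overlapped, and the interval of the DDX58 difference, -0.16 to 0.21, did not reach the size seen for IFIH1 (limma, adjusted p = 0.81). DDX60, a helicase linked to RIG-I signalling, was at 7.03, 5.65 and 6.42 FPKM in siPHF20L1 (6.37 ± 0.692) and at 5.75, 4.70 and 4.99 FPKM in siControl libraries (5.15 ± 0.542), a difference of 0.26 (SE 0.10, limma, adjusted p = 0.0453). One siPHF20L1 library of DDX60 lay below the highest siControl library. Its call was lost without siPHF20L1 1 (limma, adjusted p = 0.117), siPHF20L1 3 (0.114), siControl 2 (0.153) or siControl 3 (0.115), with median-ratio size factors (0.0885), after quantile normalization (0.0899), with equal FPKM sums (0.0639) and with no filter (0.0836). Averaging the libraries numbered 2 and 3 removed the call too (limma, adjusted p = 0.14). The DDX60 difference lay between 0.18 and 0.33 over all alternatives.

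The transcription factors showed the strongest fall beside IFITM1. IRF1, an interferon-induced factor that also keeps basal expression of many antiviral genes, was at 10.57, 11.36 and 10.83 FPKM in the siPHF20L1 libraries (10.9 ± 0.403) and at 21.46, 20.45 and 20.42 FPKM in the siControl libraries (20.8 ± 0.592). The siControl mean was 1.90 times the siPHF20L1 mean, the libraries of each group lay close together, with a log2 difference of -0.87 (SE 0.06, limma, adjusted p = 7.24e-06). STAT2 and IRF9, partners in ISGF3, moved in opposite directions. STAT2 was at 23.66, 22.55 and 24.12 FPKM in siPHF20L1 (23.4 ± 0.807) and at 19.49, 18.92 and 18.63 FPKM in siControl libraries (19.0 ± 0.438), a difference of 0.29 (SE 0.06, limma, adjusted p = 0.00239). IRF9 was at 14.06, 14.42 and 14.59 FPKM in siPHF20L1 (14.4 ± 0.271) and at 17.12, 17.82 and 15.48 FPKM in siControl libraries (16.8 ± 1.20), a difference of -0.21 (SE 0.07, limma, adjusted p = 0.0254). The groups of both genes were separate. The IRF9 call was lost without siPHF20L1 2 (limma, adjusted p = 0.0653), siPHF20L1 3 (0.0622), siControl 1 (0.0519) or siControl 2 (0.105). With the libraries numbered 2 and 3 averaged, the IRF9 call was lost as well (limma, adjusted p = 0.0937). IRF7, the factor that amplifies interferon production, was at 4.96, 6.64 and 5.90 FPKM in siPHF20L1 (5.83 ± 0.842) and at 4.27, 4.76 and 6.34 FPKM in siControl libraries (5.12 ± 1.08). These overlapped, and the interval of the IRF7 difference was -0.15 to 0.48 (limma, adjusted p = 0.326).

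ISG15 is a ubiquitin-like protein that HERC5 attaches to newly made proteins in human cells and that USP18 removes. The ligase was higher while the modifier and its protease did not pass the test. HERC5 was at 19.82, 17.91 and 18.46 FPKM in the siPHF20L1 libraries (18.7 ± 0.983) and at 11.11, 9.89 and 9.56 FPKM in the siControl libraries (10.2 ± 0.816). Its groups were clearly separate, with a ratio of the means of 1.84 and a log2 difference of 0.82 (SE 0.07, limma, adjusted p = 3.23e-05). HERC6, the relative that serves as the ISG15 ligase in mice, averaged 9.23 ± 0.655 FPKM in siPHF20L1 and 6.38 ± 0.248 FPKM in siControl libraries, a difference of 0.47 (SE 0.07, limma, adjusted p = 0.000679). ISG15, the most abundant member, was at 173.11, 284.65 and 262.11 FPKM in siPHF20L1 (240 ± 59.0) and at 163.42, 233.47 and 242.92 FPKM in siControl libraries (213 ± 43.4). The library numbered 1 was the lowest in both groups, and the interval of the ISG15 difference was -0.30 to 0.62 (limma, adjusted p = 0.523). Once the replicate number was a block, the ISG15 difference of 0.16 passed (limma, adjusted p = 0.00614), as it did within the libraries numbered 2 and 3 alone, where it was 0.20 (limma, adjusted p = 0.00425). USP18, which also restrains signalling at IFNAR2, averaged 2.59 ± 0.320 FPKM in siPHF20L1 and 2.41 ± 0.160 FPKM in siControl libraries, with an interval of -0.13 to 0.27 (limma, adjusted p = 0.509).

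The next 8 members, among them proteins that act at membranes, on entry or on budding, included the largest fall. IFITM1, a membrane protein that hinders virus entry, was at 3.48, 2.50 and 2.54 FPKM in the siPHF20L1 libraries (2.84 ± 0.555) and at 6.98, 6.16 and 7.14 FPKM in the siControl libraries (6.76 ± 0.526). The siControl mean was 2.38 times the siPHF20L1 mean, without overlap, with a log2 difference of -1.02 (SE 0.11, limma, adjusted p = 8.26e-05). SAMD9, a cytoplasmic protein that restricts poxviruses, was at 8.99, 6.81 and 7.5 FPKM in siPHF20L1 (7.77 ± 1.11) and at 14.12, 10.77 and 10.60 FPKM in siControl libraries (11.8 ± 1.99), a difference of -0.55 (SE 0.13, limma, adjusted p = 0.00549). The library numbered 1 was the highest for SAMD9 in both groups, and within each number siPHF20L1 was the lower. MX1, a dynamin-like GTPase that traps viral ribonucleoproteins, was at 3.79, 4.32 and 3.26 FPKM in siPHF20L1 (3.79 ± 0.530) and at 2.11, 2.57 and 1.96 FPKM in siControl libraries (2.21 ± 0.318). All MX1 values in siPHF20L1 were above those in siControl, with a difference of 0.57 (SE 0.11, limma, adjusted p = 0.00182). BST2, or tetherin, which holds budding virions on the cell surface, averaged 2.09 ± 0.362 FPKM in siPHF20L1 and 1.30 ± 0.298 FPKM in siControl libraries, a difference of 0.43 (SE 0.12, limma, adjusted p = 0.0161). The BST2 call was lost without siPHF20L1 2 (limma, adjusted p = 0.0575) and after quantile normalization, where the difference was 0.28 (0.105). It rests on about 16.8 to 44.2 fragments per library. Reads of near-identical relatives, among IFITM1, IFITM2 and IFITM3 above all, may have been divided between genes in the authors' counting, which leaves such values uncertain.

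Of the 4 members left untested, RSAD2 and MX2 had separate groups. RSAD2 encodes viperin, which makes a nucleotide analogue that stops viral polymerases. It was at 0.72, 0.53 and 0.74 FPKM in siPHF20L1 libraries and at 0.22, 0.15 and 0.10 FPKM in siControl libraries, about 43.3, 32.7 and 45.3 fragments against 13.3, 9.1 and 6.1. The ratio of the RSAD2 means was 4.23, and when no filter was applied the log2 difference was 0.52 (limma, adjusted p = 0.000736 over all genes that could then be tested). MX2, a GTPase that acts on nuclear import of retroviruses, was at 1.06, 0.99 and 1.17 FPKM in siPHF20L1 and at 0.82, 0.75 and 0.73 FPKM in siControl libraries (limma without a filter, adjusted p = 0.0119). CMPK2, a mitochondrial nucleotide kinase, was at 0.02, 0.06 and 0.00 FPKM in siPHF20L1 and was listed at 0 in all siControl libraries, too low to compare. TRIM22, a ubiquitin ligase, was at 0.30, 0.33 and 0.35 FPKM in siPHF20L1 and at 0.43, 0.55 and 0.35 FPKM in siControl libraries, with overlap.

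Small interferon-induced proteins held the largest rise on the log2(FPKM + 1) scale among the members tested. IFI44, which has been linked to restriction of several viruses, was at 34.62, 30.75 and 29.98 FPKM in the siPHF20L1 libraries (31.8 ± 2.49) and at 14.78, 12.13 and 13.17 FPKM in the siControl libraries (13.4 ± 1.34). The lowest siPHF20L1 value lay far above the highest siControl value. The ratio of the IFI44 means was 2.38 and the log2 difference 1.19 (SE 0.09, limma, adjusted p = 9.07e-06). Its relative IFI44L was at 1.34, 1.15 and 1.12 FPKM in siPHF20L1 (1.20 ± 0.119) and at 0.52, 0.47 and 0.44 FPKM in siControl libraries (0.477 ± 0.0404), a ratio of the means of 2.52. Since IFI44L reached 1 FPKM in the siPHF20L1 libraries alone, its log2 difference of 0.58 is given from the fit with no filter (limma, adjusted p = 0.000262). IFI6, a mitochondrial and membrane protein that opposes cell death, averaged 16.9 ± 1.53 FPKM in siPHF20L1 and 14.1 ± 1.59 FPKM in siControl libraries, a difference of 0.25 (SE 0.10, limma, adjusted p = 0.047). The IFI6 groups overlapped, and the difference was 0.52 within the number 1 and 0.12 within the numbers 2 and 3. Its call was lost without siPHF20L1 1 (limma, adjusted p = 0.111), siPHF20L1 2 (0.114), siControl 1 (0.119) or siControl 2 (0.105). It was also lost with median-ratio size factors (0.115), after quantile normalization (0.124) and with no filter (0.0795). Further losses came in the libraries numbered 2 and 3 alone (limma, adjusted p = 0.149), with these averaged (0.0658) and with no intensity trend (0.052).

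IFI27, IFI35 and XAF1 did not pass. IFI27, a small membrane protein, was at 1.53, 0.86 and 1.80 FPKM in siPHF20L1 and at 0.46, 0.70 and 1.10 FPKM in siControl libraries, a difference of 0.45 (interval 0.05 to 0.85, limma, adjusted p = 0.0551). IFI35, a binding partner of NMI, was at 16.30, 18.00 and 17.35 FPKM in siPHF20L1 and at 12.23, 14.65 and 16.47 FPKM in siControl libraries, a difference of 0.25 (interval 0.02 to 0.48, limma, adjusted p = 0.0635). Within every replicate number siPHF20L1 was the higher for both genes, and with the number as a block both passed (limma, adjusted p = 0.0056 for IFI27 and 0.00275 for IFI35). Both also passed without siControl 3 (limma, adjusted p = 0.0233 for IFI27 and 0.0182 for IFI35), and IFI27 without siPHF20L1 2 (0.0102). XAF1, which opposes the apoptosis inhibitor XIAP, averaged 2.21 ± 0.474 FPKM in siPHF20L1 and 2.37 ± 0.307 FPKM in siControl libraries, with an interval of -0.35 to 0.20 (limma, adjusted p = 0.604).

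**Figure D2:**
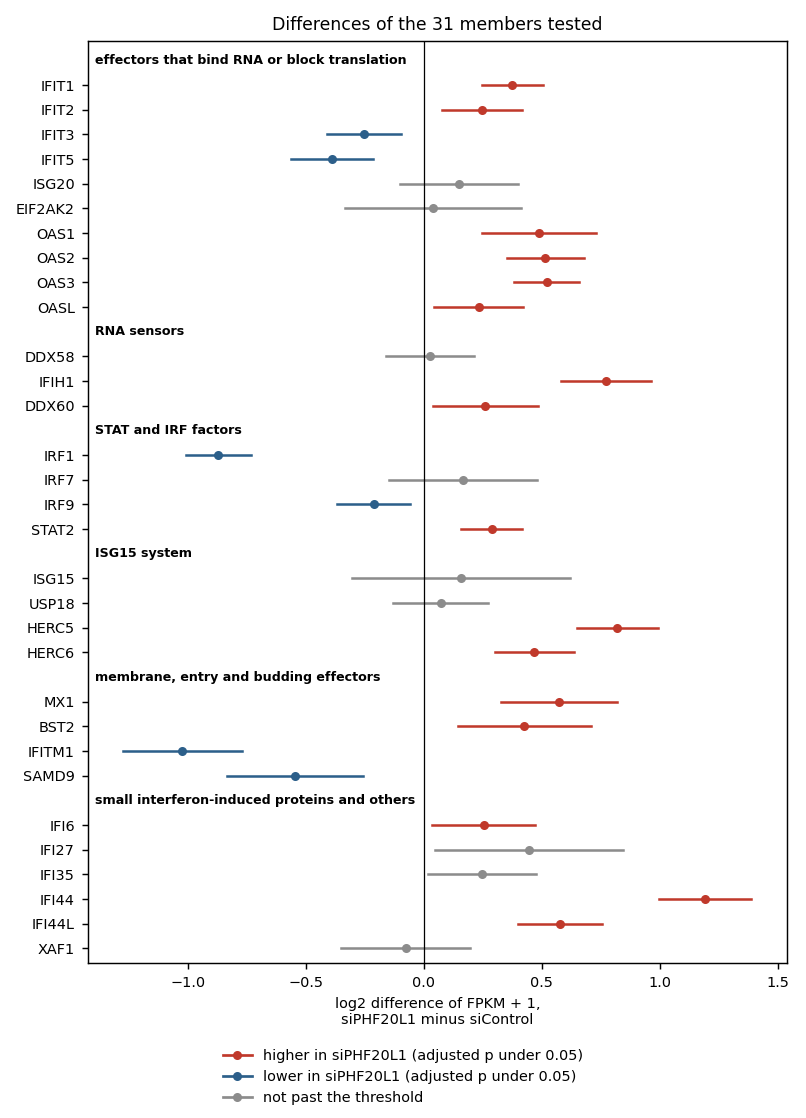
Log2 difference of FPKM + 1 (siPHF20L1 minus siControl) for the 31 members tested, by role, with points for the estimate and bars for its 95% interval from limma (n = 3 libraries in each group). Red members were higher and blue members lower at an adjusted p under 0.05, and grey members did not pass. IFI44 lies farthest right at 1.19 and IFITM1 farthest left at -1.02.

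Several members are neighbours in the genome, and neighbours did not always move together. In the RefSeq gene order IFI44L and IFI44 are adjacent on chromosome 1 and both were higher, as were HERC6 and HERC5 on chromosome 4, and OAS1, OAS3 and OAS2, which follow each other on chromosome 12. On chromosome 10 the order is IFIT2, IFIT3, IFIT1 and IFIT5, with IFIT1B between IFIT3 and IFIT1. Along that cluster the log2 differences alternated in sign, at 0.25, -0.25, 0.38 and -0.39. IFIT1B, a near relative of IFIT1, was at most 0.11 FPKM in all 6 libraries. MX2 and MX1 on chromosome 21, and CMPK2 and RSAD2 on chromosome 2, are likewise adjacent.

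Sign within the replicate numbers was compared next, since the libraries numbered 1 stood apart. All 22 called members, IFI44L included, had the same sign within the number 1 as within the numbers 2 and 3, a comparison of the same libraries as in the test. The share with the same sign among all genes called was not counted. The median difference over the 31 members tested was 0.26 within the number 1 and 0.22 within the numbers 2 and 3. OAS1, IFI6 and IFI27 departed most between these, OAS1 with the larger difference in the numbers 2 and 3, IFI6 and IFI27 with the larger in the number 1. With IFI44L left aside, 14 calls were made under every one of the 17 alternative settings, for 10 members that were higher and 4 that were lower. These were IFIT1, OAS1, OAS2, OAS3, IFIH1, STAT2, HERC5, HERC6, MX1 and IFI44 among the higher, and IFIT5, IRF1, IFITM1 and SAMD9 among the lower. Of all genes tested, 58.6% were called in the main fit, and the share called under every setting was not counted.

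**Figure D3:**
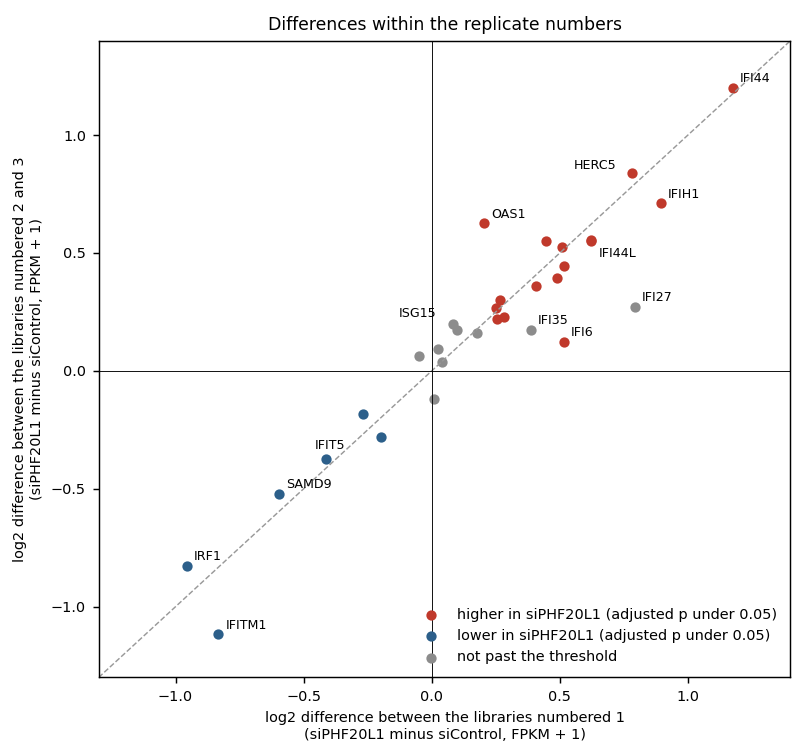
Log2 difference (siPHF20L1 minus siControl, FPKM + 1) of the 31 members tested, within the number 1 on the horizontal axis and within the numbers 2 and 3 on the vertical axis, with the dashed line where both are equal. Colours give the call over all 6 libraries. Called members lie at the upper right or the lower left, with OAS1 above the line and IFI6 and IFI27 below it.

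A list of 79 other genes of the interferon pathway was examined beside the members. Of these, 61 were tested, and 23 were higher, 12 were lower and 26 did not pass (limma, adjusted p under 0.05), with a median log2 difference of 0.02. That is 37.7% higher and 19.7% lower, against 34.0% and 24.7% over all genes tested, so the list as a whole lay near the background. Higher genes made up 65.7% of its calls, against 47.5% after quantile normalization (19 higher, 21 lower), 50% with median-ratio size factors (20 and 20) and 55.3% under the replicate block (26 higher, 21 lower). Over all genes the share also fell under these settings, to 49.0%, 50.1% and 56.3%, against 57.9%. Of the 9 interferon genes on the list, the 4 with values were at or near 0. IFNK, IFNL2 and IFNL3 were listed at 0 in all libraries, and IFNA1, IFNA2, IFNB1, IFNE and IFNG were not analysed here. IFNL1 was at 0.42, 0.27 and 0.21 FPKM in siPHF20L1 libraries, about 6.2, 4.1 and 3.1 fragments, and at 0.07, 0.00 and 0.07 FPKM in siControl libraries, about 1 fragment in each of 2 of them. It is named after its values were seen and was too low for the filter. With no filter its log2 difference was 0.31, given without a p-value because the gene was picked on these values.

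The receptor chains for type I interferon were lower, and those for interferon gamma higher. IFNAR2 averaged 5.82 ± 0.474 FPKM in siPHF20L1 and 8.65 ± 0.581 FPKM in siControl libraries, a log2 difference of -0.50 (limma, adjusted p = 0.000807). IFNAR1 averaged 7.52 ± 0.334 FPKM in siPHF20L1 and 9.49 ± 1.08 FPKM in siControl libraries, a difference of -0.30 (limma, adjusted p = 0.0168). IFNGR2 averaged 25.8 ± 1.77 FPKM in siPHF20L1 and 19.1 ± 0.868 FPKM in siControl libraries, a difference of 0.41 (limma, adjusted p = 0.000945). For IFNGR1, at 15.1 ± 0.423 FPKM in siPHF20L1 and 12.8 ± 1.07 FPKM in siControl libraries, the difference was 0.22 (limma, adjusted p = 0.0276). Over all alternatives the difference of IFNAR1 lay between -0.38 and -0.22 and that of IFNGR1 between 0.16 and 0.28. The call of IFNAR1 was lost without siPHF20L1 2 (limma, adjusted p = 0.0578) or siPHF20L1 3 (0.0538), and that of IFNGR1 without siPHF20L1 1 (0.0574), siPHF20L1 2 (0.0533), siPHF20L1 3 (0.0757), siControl 2 (0.0734) or siControl 3 (0.108). IFNGR1 also lost its call with median-ratio size factors (0.0748) and after quantile normalization (0.0568). With the libraries numbered 2 and 3 averaged, both calls were lost (limma, adjusted p = 0.0671 for IFNAR1 and 0.161 for IFNGR1). Of the chains used by interferon lambda, IFNLR1 was at 1.21 ± 0.214 FPKM in siPHF20L1 and 1.21 ± 0.241 FPKM in siControl libraries (interval -0.25 to 0.25, limma, adjusted p = 0.994), and IL10RB differed by 0.15 (limma, adjusted p = 0.0674, or 0.00334 with the replicate block).

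Behind the receptors, the kinase JAK1 was lower, at 25.7 ± 0.236 FPKM in siPHF20L1 and 30.3 ± 1.16 FPKM in siControl libraries, a log2 difference of -0.23 (limma, adjusted p = 0.00691). The JAK1 call was lost with the libraries numbered 2 and 3 averaged (limma, adjusted p = 0.0708). JAK2 was lower by 0.30 on the log2 scale (limma, adjusted p = 0.0281). The JAK2 call was lost without siPHF20L1 2 (0.0572), siPHF20L1 3 (0.106) or siControl 1 (0.0771), and with that averaging (0.0815). STAT3 was higher, with a difference of 0.33 (limma, adjusted p = 0.00104). The kinase TYK2 differed by -0.08 (limma, adjusted p = 0.448).

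Of the 12 tested genes that induce interferon, 6 were higher and 2 were lower, which is 66.7% called against 58.6% over all genes. Under the replicate block, 6 were higher and 4 were lower. TRAF3, an adaptor downstream of the RNA sensors, averaged 14.5 ± 0.624 FPKM in siPHF20L1 and 6.84 ± 0.191 FPKM in siControl libraries, a log2 difference of 0.98 (limma, adjusted p = 5.81e-06). DHX58, the regulatory relative of IFIH1 and DDX58, rose by 0.67 (limma, adjusted p = 0.000617), RNF135, a ubiquitin ligase for RIG-I, by 0.56 (0.00137), and MAVS, the mitochondrial adaptor of both sensors, by 0.32 (0.00317). TRIM25, also a ubiquitin ligase in the RIG-I pathway, averaged 31.7 ± 1.28 FPKM in siPHF20L1 and 46.4 ± 0.761 FPKM in siControl libraries, a difference of -0.54 (limma, adjusted p = 5.79e-05). TMEM173, which encodes the DNA-sensing adaptor STING, differed by -0.35 (limma, adjusted p = 0.00117). TBK1 did not pass, with a difference of 0.09 (limma, adjusted p = 0.522). IRF3 differed by -0.14 (limma, adjusted p = 0.0874), which passed with median-ratio size factors (0.0264), after quantile normalization (0.0135), with the replicate block (0.00275) and without siControl 1 (0.0367).

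Among the 7 tested inhibitors, 1 was higher and 2 were lower, which is 42.9% called against 58.6% over all genes. Under the replicate block, 1 was higher and 3 were lower. SOCS1, which blocks JAK kinases, averaged 2.1 ± 0.499 FPKM in siPHF20L1 and 6.02 ± 0.728 FPKM in siControl libraries, a log2 difference of -1.19 (limma, adjusted p = 7.69e-05). SOCS3 differed by -0.20 (limma, adjusted p = 0.0332). The SOCS3 call was lost without any one of 5 of the 6 libraries (adjusted p between 0.0511 and 0.121). It was also lost with the libraries numbered 2 and 3 averaged (0.165). PTPN11, which encodes the phosphatase SHP2, averaged 38.9 ± 3.49 FPKM in siPHF20L1 and 21.5 ± 2.49 FPKM in siControl libraries, a difference of 0.82 (limma, adjusted p = 0.00011).

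Of 31 further interferon-stimulated genes that were tested, 13 were higher and 4 were lower, which is 54.8% called against 58.6% over all genes. Under the replicate block, 15 were higher and 9 were lower. IFI16, a nuclear DNA sensor, averaged 78.4 ± 10.5 FPKM in siPHF20L1 and 30.6 ± 2.92 FPKM in siControl libraries, a log2 difference of 1.32 (limma, adjusted p = 1.3e-05). GBP1, a GTPase that attacks intracellular pathogens, averaged 34.7 ± 1.49 FPKM in siPHF20L1 and 13.7 ± 0.316 FPKM in siControl libraries, a difference of 1.28 (limma, adjusted p = 1.09e-06). SLFN5 rose by 1.10 (limma, adjusted p = 4.64e-05). The largest falls were those of PARP12, at 7.10 ± 0.594 FPKM in siPHF20L1 and 13.8 ± 0.229 FPKM in siControl libraries (difference -0.88, limma, adjusted p = 1.99e-05), of DTX3L (-0.56, 0.00142) and of IFITM2 (-0.43, 0.000438). IFITM2 lies in the same family as IFITM1 and moved in the same direction, while IFITM3 averaged 571 ± 20.1 FPKM in siPHF20L1 and 594 ± 35 FPKM in siControl libraries and did not pass (limma, adjusted p = 0.49).

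**Figure D4:**
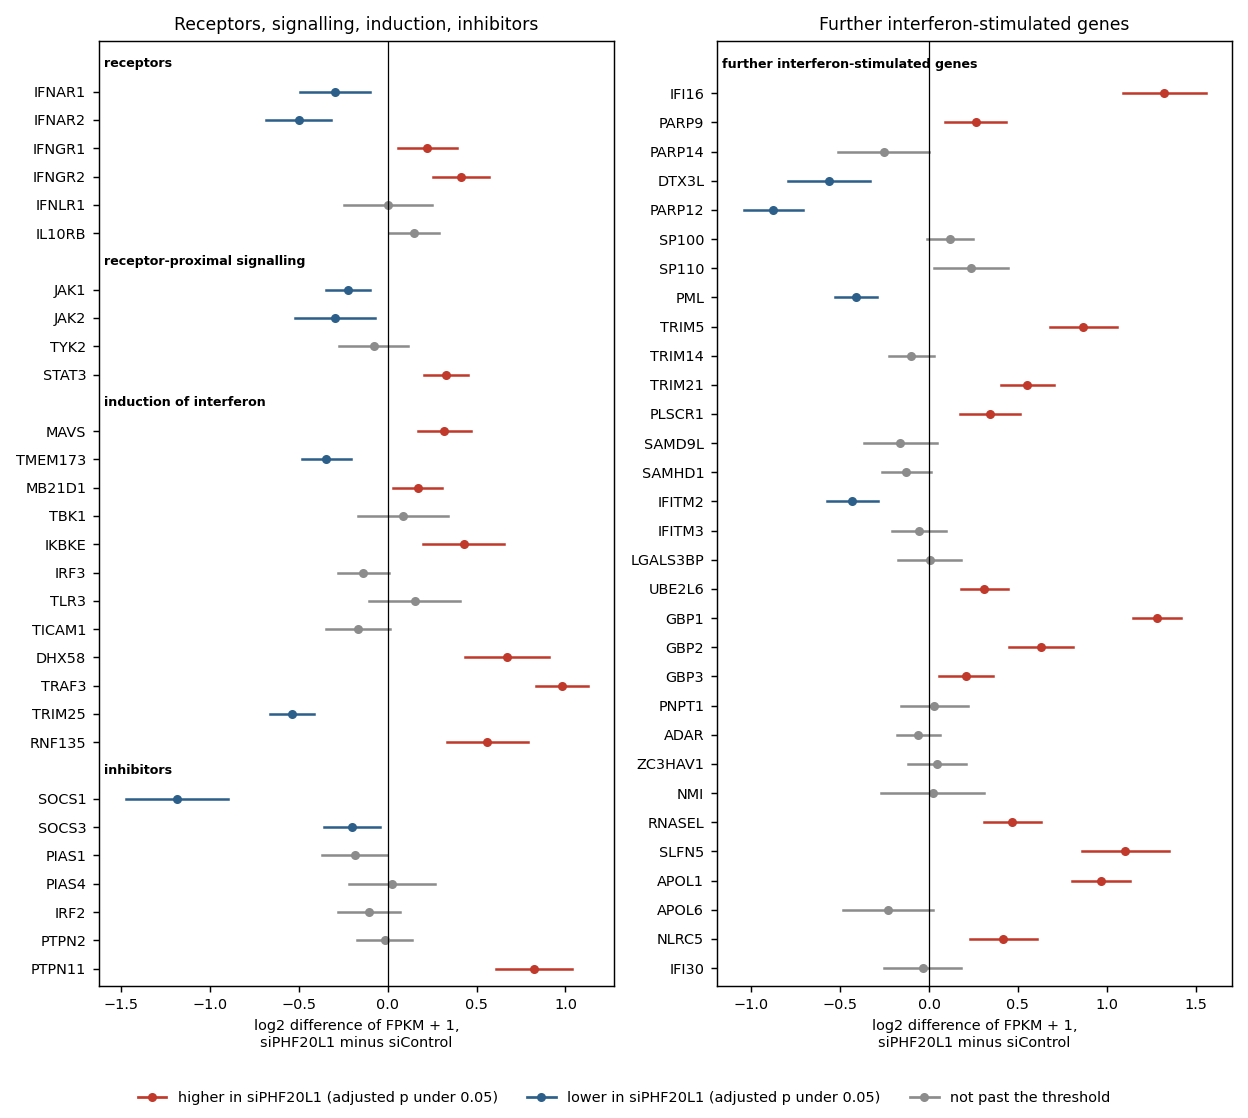
Log2 difference of FPKM + 1 (siPHF20L1 minus siControl) for tested genes of the wider interferon pathway (1 of the 61 is not shown), receptors to inhibitors on the left and further interferon-stimulated genes on the right, with 95% intervals from limma (n = 3 libraries in each group) and the same colours for the calls. IFI16 at 1.32 and SOCS1 at -1.19 mark the ends of the range.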

How the data were processed

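MDA-MB-231 cells were profiled in 6 RNA-seq libraries, 3 siPHF20L1 and 3 siControl, grouped by the labels. The kit selected poly-A RNA and kept strand, per the labels. HTSeq 0.6.0, TopHat2 2.1.1, Bowtie 0.12.2 and the build GRCh37 appear in the submitters' processing notes, with no role or order. Per the file headers, the deposited values are FPKM, written to 2 decimals. The annotation and the strand setting of the counting are not given in the sources used here, so genes that overlap on opposite strands are uncertain.

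Depth was estimated from the steps between low FPKM values of genes with transcripts under 1500 nt. Multiples of the chosen step cannot be told from it, so depth could be lower. Gene counts were not recovered, and no count test was run. From this depth, 1 fragment in a transcript of 1 kb is worth 0.057 to 0.0585 FPKM.

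limma 3.58.1 in R 4.3.3 was fitted to log2(FPKM + 1) over all 11560 genes with at least 1 FPKM in at least 3 libraries, with an intensity trend, no block and two-sided tests at an adjusted p of 0.05 (Benjamini-Hochberg). The script was tested on simulated data. Library deviations from the group means correlated at 0.73, 0.44 and 0.42 between libraries of the same number. Deviations in a group of 3 sum to 0, and siPHF20L1 2 with siControl 3 gave 0.49, so this check sets the number 1 apart without separating the numbers 2 and 3. The labels do not state a pairing by number, so the main fit ignores it and the block is an alternative. Among the members, the calls of ISG20, ISG15, IFI27 and IFI35 depend on this choice. Intervals are 95% confidence intervals. All 35 members are named, with other pathway genes named by role and size of difference. The members and lists were chosen with earlier results of these data known, so their counts are descriptions beside those over all genes. Promoter windows and gene order came from RefSeq (GRCh38.p14, 17419 of 17452 identifiers matched), another build than that of the files. RefSeq lists DDX58 as RIGI. Alternatives were another pseudocount, other filters, other scalings, no trend, blocks by number, libraries 2 and 3 alone or averaged, and each library left out. Values of 1 pathway gene are not reported here, though it stays in the counts.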

Additional observations from a re-analysis of the deposited data

How the results depend on the processing

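Over the 17 alternatives, 11 to 20 members were higher and 4 to 6 lower, against 16 and 6. The median log2 difference over members stayed positive, at 0.19 after quantile normalization, 0.18 with median-ratio size factors, 0.26 with equal FPKM sums, 0.22 in the libraries numbered 2 and 3 alone, and 0.19 to 0.30 with single libraries left out, against 0.25. With the replicate block, 20 members were higher and 6 lower, since ISG20, ISG15, IFI27 and IFI35 passed. The block changed no other member's call. Higher calls over all genes rose likewise under the block, to 4946, against 3926. With the libraries numbered 2 and 3 averaged, 13 members were higher and 4 lower, and over all genes 2949 were higher and 1941 lower. Pathway genes called lower were 21 after quantile normalization, 20 with median-ratio size factors, 21 with the block and 22 with the libraries numbered 1 as a block of their own, against 12. Over all genes, lower calls rose likewise under these settings, to 3495, 3420, 3846 and 3870, against 2851. The cause was not tested. Only members that did not pass changed sign. EIF2AK2 was at -0.014 and -0.024, and DDX58 at -0.028 and -0.037, under quantile normalization and median-ratio size factors, and USP18 was at -0.042 under quantile normalization. With single libraries left out, EIF2AK2 ranged from -0.12 to 0.19, DDX58 from -0.019 to 0.10, ISG15 from -0.021 to 0.38 and XAF1 from -0.19 to 0.023. Low members such as RSAD2 and BST2 rest on few fragments, and FPKM keep no exact counting error.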
